A study of Mus musculus with 9 samples.

Results

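In eosinophil progenitors (EoP), 1263 of the 19816 H3K4me3 peaks in the deposited list (6.37%) shared no base with any of the 30645 peaks listed for granulocyte-macrophage progenitors (GMP). These 1263 intervals, of every region class, are described here, beside the 18553 EoP intervals that overlap a GMP interval. Peak values chose them, so the counts of the intervals themselves are a description. They were split by overlap with the 33847 intervals of mature eosinophils (Eos) and by region class, and were joined by gene symbol to RNA from the same cell types.

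All cells came by sorting from bone marrow pooled over Balb/c mice that had received no treatment. In the order of differentiation, GMP were lineage-negative, CD34+, c-kit high, CD16/32+ cells. EoP were lineage-negative, CD34+, c-kit low, CD125+ cells. Eos carried Siglec-F and CCR3. Each cell type gave 1 H3K4me3 library, with no replicate, and 2 RNA libraries from separate sorts. Whether those sorts came from separate animals is not stated in the labels, and p-values measure only the spread between these samples. CD125 is the product of Il5ra, so the level of that gene in EoP was selected by the gate.

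H3K4me3 is the trimethyl mark that the Set1 and MLL methyltransferase complexes place on histone H3 lysine 4. It lies over the nucleosomes that flank active and poised transcription start sites, and it often spreads into the first part of the transcribed gene. CpG islands usually carry the mark in many cell types, and promoters of genes restricted to a cell type are more often poor in CpG. In the eosinophil lineage, the progenitor makes large amounts of granule protein, and interleukin 5, acting through Il5ra, drives expansion and survival.

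Promoter sequence could be shown for part of the genes that carried such a peak at a promoter where GMP had no promoter peak. RefSeq windows (build GRCm38.p6, the build that mm10 names; 250 bases before to 50 bases after a start, printed 5′ to 3′ on the strand of the gene) were available for 9 of the 11 genes of that kind whose RNA was higher in EoP than in GMP. The absent peaks of these genes mostly lay beside the windows: 56 bases of the Ear2 window were under one, and no base of the other 8 windows was. The first set of windows is shown because they hold the GATA motif AGATAA or TGATAA (either strand, in capitals), the motif of the GATA factors used by this lineage. Il5ra lies on the minus strand at chr6:106748988-106749287, Cybb on the minus strand at chrX:9469275-9469574 and Cyp4f18 on the minus strand at chr8:72009577-72009876.
Il5ra: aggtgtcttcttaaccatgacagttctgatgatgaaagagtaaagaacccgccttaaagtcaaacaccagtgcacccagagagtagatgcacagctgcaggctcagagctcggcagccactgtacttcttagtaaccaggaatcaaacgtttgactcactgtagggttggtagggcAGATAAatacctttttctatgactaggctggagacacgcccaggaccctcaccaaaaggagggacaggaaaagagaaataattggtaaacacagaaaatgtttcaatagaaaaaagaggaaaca
Cybb: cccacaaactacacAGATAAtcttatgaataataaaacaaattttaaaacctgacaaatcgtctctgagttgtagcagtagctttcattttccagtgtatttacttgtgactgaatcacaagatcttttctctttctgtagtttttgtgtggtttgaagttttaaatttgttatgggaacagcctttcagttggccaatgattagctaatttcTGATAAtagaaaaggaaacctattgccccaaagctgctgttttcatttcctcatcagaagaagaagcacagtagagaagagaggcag
Cyp4f18: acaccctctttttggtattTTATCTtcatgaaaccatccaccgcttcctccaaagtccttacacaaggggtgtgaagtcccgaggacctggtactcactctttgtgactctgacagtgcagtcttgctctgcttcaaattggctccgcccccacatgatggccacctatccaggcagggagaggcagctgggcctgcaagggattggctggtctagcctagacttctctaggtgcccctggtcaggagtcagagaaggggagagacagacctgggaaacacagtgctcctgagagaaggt
The windows of Ear1 (minus strand, chr14:43819590-43819889) and Ear2 (plus strand, chr14:44102404-44102703) are shown because the eosinophil ribonuclease genes are near copies of each other, which limits how their reads and peaks can be told apart. They share an unbroken run of 204 bases and hold no GATA motif.
Ear1: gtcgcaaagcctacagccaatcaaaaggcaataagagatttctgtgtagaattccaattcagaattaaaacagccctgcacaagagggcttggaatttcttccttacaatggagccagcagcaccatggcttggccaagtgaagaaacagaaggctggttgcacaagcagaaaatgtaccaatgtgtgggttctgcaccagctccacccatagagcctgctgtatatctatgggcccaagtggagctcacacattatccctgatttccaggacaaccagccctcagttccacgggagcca
Ear2: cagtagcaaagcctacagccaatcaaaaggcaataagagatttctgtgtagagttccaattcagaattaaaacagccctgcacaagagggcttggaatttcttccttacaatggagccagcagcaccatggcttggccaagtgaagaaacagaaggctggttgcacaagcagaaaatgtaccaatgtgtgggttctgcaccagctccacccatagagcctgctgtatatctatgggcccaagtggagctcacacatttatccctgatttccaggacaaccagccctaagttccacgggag
Among the windows that an absent peak did touch, the GATA motif was in 9 of 88 (10.2%), and in 6 of the 36 that no GMP peak touched (16.7%). It was in 706 of 9052 windows under EoP peaks that all overlap GMP (7.80%), in 5397 of the 23677 windows that no EoP peak touched (22.8%), and in 6112 of all 32817 windows (18.6%). By gene instead of by overlap, it was in 33 of 228 windows of all genes with an absent promoter peak (14.5%). Within these, it was in 10 of 24 windows of genes without a GMP promoter peak (41.7%) and in 3 of the 9 windows above (33.3%). The share under absent peaks and the share by gene over all 228 windows were below that of all windows. The shares of the small sets without a GMP promoter peak were above it, and none of these differences was tested. The median number of CpG was 22 in the 88 windows and 15.5 in the 36, against 23 in the 9052 windows under shared peaks. It was 2 in the 9 windows, 4 in windows under no EoP peak and 7 in all windows. A match to the motif describes letters only.

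The peaks absent from GMP were short and weak within the EoP list. Their median length was 155 bases, against 432 bases for EoP peaks that overlap GMP, and 388 of them had the shortest length in the list, 145 bases. The median fold enrichment, the authors' own value per peak, was 3.97, against 6.44. The median pileup at the summit was 6 fragments, against 17. In the lowest 25% of the list by −log10 q lay 1165 of them (92.2%). Of that 25%, 23.1% were absent from GMP, against 0.664% of the rest of the list. Only 3 lay in the upper 50% of the list, in introns of Ica1 and Chd3 and at the promoter of Gramd1b, and these 3 were named after their values were seen. Absence from the GMP list says that no interval was listed there, and the depth of the H3K4me3 libraries is unknown. With the GMP list limited to its 19816 intervals of highest −log10 q, 2432 EoP intervals would be absent from it.

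Of the 1263, 215 were annotated to a promoter (17.0%), 129 upstream, 67 to an exon, 417 to an intron and 435 as intergenic. Of the EoP peaks that overlap GMP, 81.2% were at promoters. Many lay close to a GMP peak. The gap to the nearest GMP interval was at most 1000 bases for 370 and at most 100 bases for 138, with a median of 20775 bases over all. At promoters, 190 of 215 were within 1000 bases of a GMP interval. At the edge of the rule, the promoter peak of Zfp442 (fold 6.44), the promoter peak of Gng4 (4.75) and an intron peak of Gm12522 (5.08) abutted a GMP interval. The promoter peaks of Ints6 (3.96) and Phf19 (3.74) overlapped GMP by 1 base and an intron peak of Foxn3 (5.44) by 2 bases.

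In Eos, 281 of the 1263 intervals overlapped a listed peak (22.2%, exact 95% interval 19.98 to 24.6%), against 16709 of 18553 EoP intervals that overlap GMP (90.1%, 89.6 to 90.5%). The shares also differed within classes of fold enrichment, although the absent peaks were weaker within each class. In the lowest 25% of the EoP list by fold enrichment the shares were 204 of 1078 (18.9%, 16.6 to 21.4%) against 2698 of 3874 (69.6%, 68.2 to 71.1%). There the median −log10 q was 2.17 against 3.23 and the median length 153 against 202 bases. In the next 25% they were 71 of 172 (41.3%) against 4220 of 4781 (88.3%), with a median −log10 q of 4.35 against 5.79. These intervals cover counting error only, and 1 library stands behind each list.

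Region and distance split the 1263 further. A peak in Eos was found for 117 of 215 promoter intervals (54.4%), 21 of 67 in exons (31.3%), 26 of 129 upstream (20.2%), 67 of 417 in introns (16.1%) and 50 of 435 intergenic intervals (11.5%). Within 1000 bases of a GMP peak the share was 181 of 370 (48.9%, 43.7 to 54.1%), and farther away 100 of 893 (11.2%, 9.21 to 13.5%). The 982 intervals not found in Eos had a median pileup of 5 fragments, against 8 for the 281 found there. The classes differed in their mix of distances, and distance did not split every class alike. At promoters the share in Eos was 13 of 25 (52.0%) at more than 1000 bases from a GMP peak and 104 of 190 (54.7%) nearer. In introns it was 35 of 332 (10.5%) and 32 of 85 (37.6%), and for intergenic intervals 26 of 390 (6.67%) and 24 of 45 (53.3%).

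**Figure D1:**
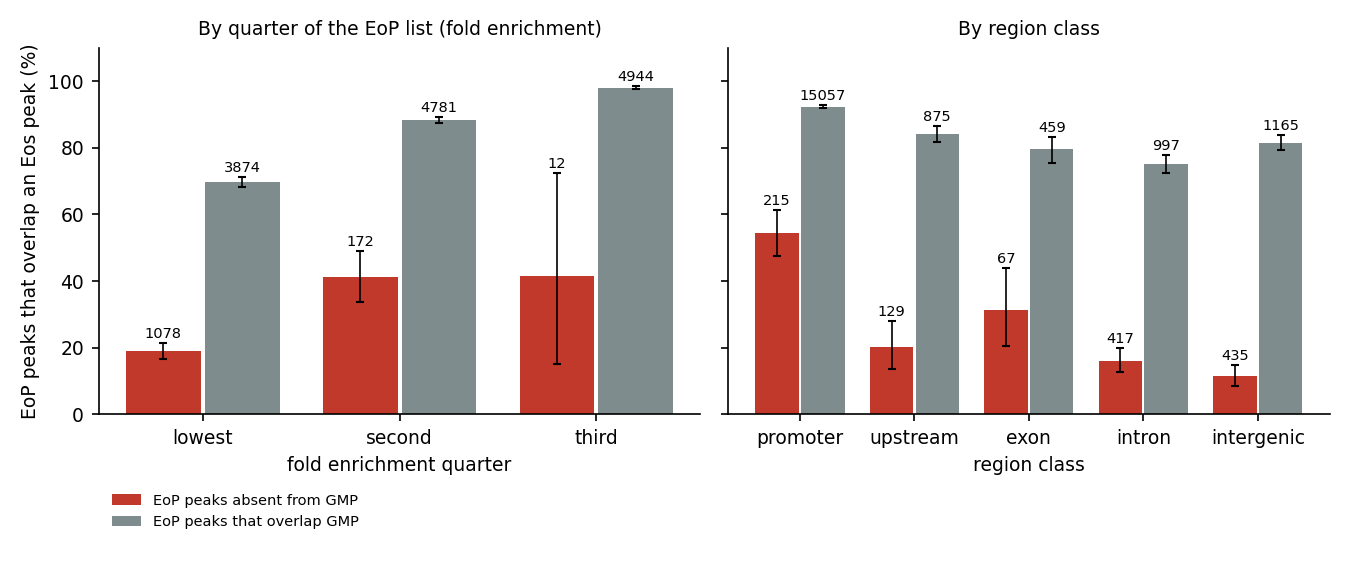
Share of EoP H3K4me3 intervals that overlap an Eos interval (percent, y axis), by rank of fold enrichment in the EoP list, in classes of 25% (left) and by region class (right), for intervals absent from GMP (red) and intervals that overlap GMP (grey); bars are shares, lines exact 95% intervals and numbers the intervals counted. The red bar is below the grey bar in each pair, at 18.9% against 69.6% in the lowest class and 54.4% against 92.4% at promoters; the highest class, with 1 interval absent from GMP, is not drawn.

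The RNA libraries held 9628492 and 12088134 counts in EoP and 10940000 and 10790618 in Eos, against 6576661 and 5226653 in GMP. A count was seen for 14350 and 14970 genes in EoP, against 19677 and 20542 in the shallower GMP libraries. The 9 measured eosinophil granule genes summed to 244760 and 194817 CPM (read counts scaled to library size with TMM factors) in EoP, against 1214 and 292 CPM in GMP, and all 9 were higher in EoP. The 4 Y-linked genes Ddx3y, Eif2s3y, Uty and Kdm5d summed to 144 and 95.1 CPM in EoP and to 180 and 112 CPM in Eos, against 0.121 and 0.149 CPM in GMP. Each of the 4 had a promoter peak in the EoP and GMP H3K4me3 lists and none in the Eos list. Y-linked signal thus differed between the RNA sorts and, within GMP and within Eos, between RNA and H3K4me3, and a difference in the sex of the pooled animals cannot be told apart from cell type. In bulk samples such as these, fewer cells of a type and less RNA per cell cannot be told apart.

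A promoter peak absent from GMP was annotated to 232 genes, of which 207 passed the expression filter. In EoP against GMP, 58 of the 207 were higher (28.0%) and 16 were lower (7.73%), in edgeR's quasi-likelihood test with Benjamini-Hochberg adjustment over all 14324 genes. Of all genes tested, 9.49% were called higher and 17.1% lower. Of the 10403 tested genes whose EoP promoter peaks all overlap GMP, 11.0% were called higher and 6.79% lower. The median log2 fold change was 0.39 over the 207 genes, against 0.08 over those 10403 and −0.07 over all. The share called higher among the 207 was thus above both comparison shares, and the share called lower was near that of other genes with an EoP promoter peak. Scaled by library size alone, 49 of the 207 were higher and 26 lower. Leaving out 1 GMP or EoP library left 41 to 52 higher and 2 to 6 lower. The 232 genes share 215 intervals, so genes that share a peak are not separate cases.

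The split by Eos moved this count. Where the peak was also found in Eos, 43 of 118 tested genes were higher (36.4%) and 9 lower, and where it was not, 15 of 89 were higher (16.9%) and 7 lower. For 32 genes the GMP list had no promoter peak, although for 6 of them a GMP peak of another annotation lay within 1000 bases. Of the 23 tested among them, 11 were higher in EoP (47.8%), with a median log2 fold change of 1.68, and 1 was lower, A530032D15Rik. Among the 11 were Ear2, Ear3 and Ear12, which share 1 interval. The other 200 genes also had a GMP promoter peak, which for 3 of them lay more than 1000 bases from the absent one. Of these 200 genes, 47 of 184 tested were higher (25.5%) and 15 lower.

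**Figure D2:**
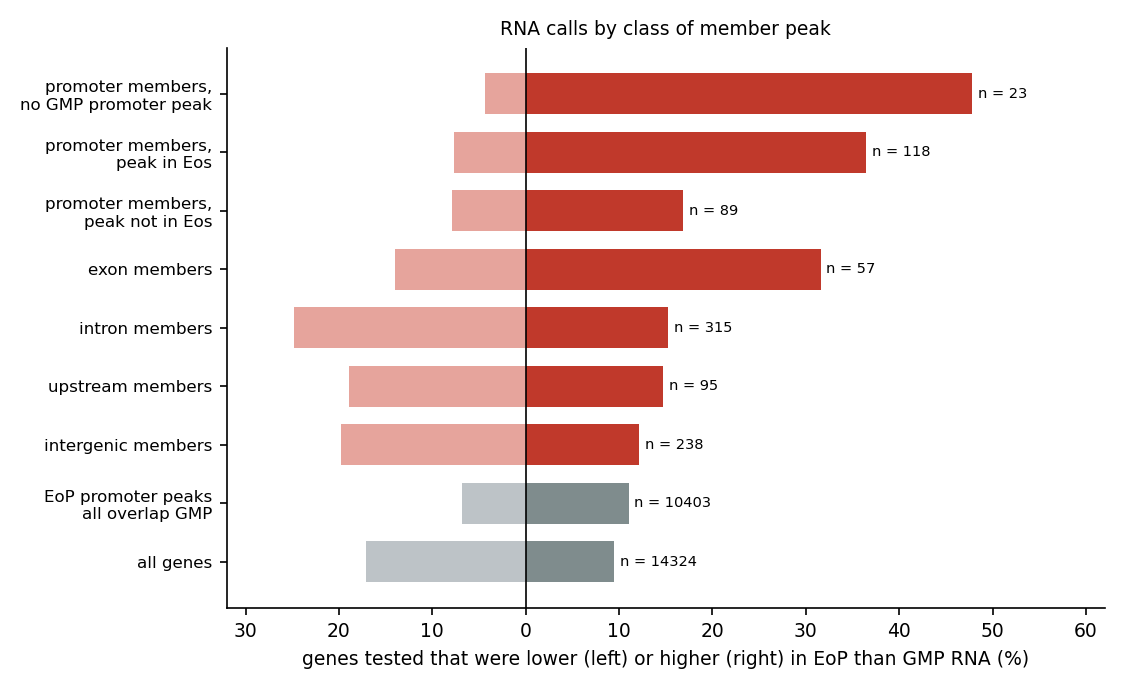
Percent of tested genes called higher (right of 0) or lower (left of 0) in EoP than in GMP RNA, for genes with an EoP peak absent from GMP by class (red) and for comparison sets (grey); n is the number of genes tested. The 4 upper classes include the 47.8% higher among genes with no GMP promoter peak, against 9.49% of all genes, while intron, upstream and intergenic classes had more genes lower than higher.

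The position of the peak within the promoter went with the RNA of the gene. This split was chosen after the values were seen. Unless stated otherwise, the start used is the one nearest to the summit among the transcripts of the gene. Of the 58 genes higher in EoP, 46 had the summit of the absent peak downstream of the start (79.3%, median 516 bases downstream). Of the 133 genes not called, 36 had it downstream (27.1%), with a median 274 bases upstream, and of the 16 lower genes 5 did. A downstream summit was also usual where an EoP promoter peak overlaps GMP. Among peaks annotated to 1 gene, by the start given in the peak list, 9551 of 12669 such peaks had it (75.4%), against 94 of 198 absent from GMP (47.5%). The 79.3% of the higher genes was thus near the share for shared peaks, and the share of the genes not called lay below it. Read the other way, 46 of the 87 tested genes with a downstream summit were higher (52.9%) and 5 lower. Of the 120 tested genes with a summit at or upstream of the start, 12 were higher and 11 lower, a share of higher genes close to the 9.49% of all genes.

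The same split was made for genes whose EoP promoter peaks all overlap GMP, by their strongest peak. Of 7296 such tested genes with the summit downstream, 906 were higher (12.4%), and of 914 with it at or upstream of the start, 85 were (9.30%). At more than 500 bases downstream the shares were 30 of 49 (61.2%) for promoter peaks absent from GMP, against 214 of 1208 (17.7%) for those that overlap GMP. With the start given in the peak list instead, a choice added after seeing the data, the side differed for 10 of the 207 genes, among them Ear2, Il17rb, Tirap and Tpbg of the higher ones. Then 44 of 87 genes with a downstream summit were higher (50.6%), and 14 of 120 of the others. By the nearest start, and with the peak also in Eos, 34 of 52 tested genes with a downstream summit were higher (65.4%). Without it, 12 of 35 were (34.3%). Under the scalings, filter, block and left-out libraries tried, 39.6 to 56.5% of genes with a downstream summit were higher. Of genes with an upstream summit, 5 of 120 (4.17%) were higher without GMP replicate 1, 21 of 126 (16.7%) with no filter, 24 of 120 without Eos replicate 1 and 23 of 120 (19.2%) without Eos replicate 2.

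Most of these peaks flanked an existing GMP peak. Of 74 promoters with the absent peak within 1000 bases downstream of a GMP peak, 65 genes were tested and 30 were higher (46.2%) and 3 lower. Of 123 with it upstream of the GMP peak, 116 were tested and 15 were higher (12.9%) and 12 lower. The side toward the gene body was therefore the one at which genes were more often higher in EoP.

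**Figure D3:**
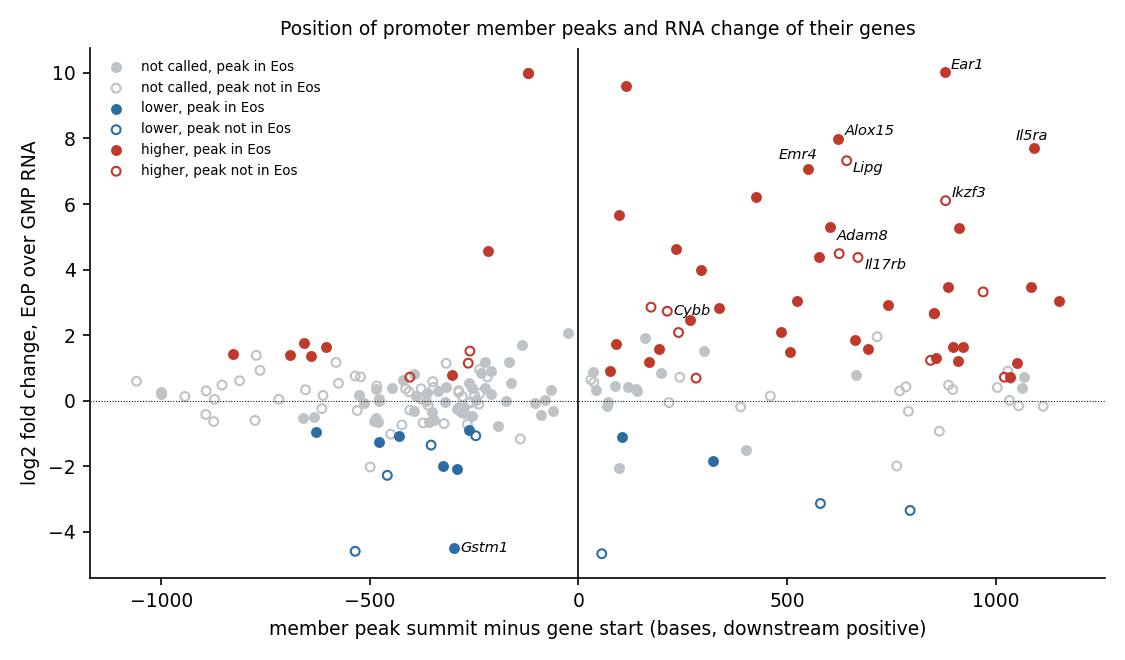
Distance of the summit of each promoter peak absent from GMP from the start of its gene (bases, x axis, downstream positive) against the log2 fold change of that gene in EoP over GMP RNA (y axis), for the 207 tested genes; colour gives the call and filled points the peaks also found in Eos. Red points crowd the right side, where 46 of 87 genes were higher, and grey points the left, where 97 of 120 were not called.

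The eosinophil ribonuclease genes Ear1, Ear2, Ear3 and Ear12, whose products belong to the granule, had promoter peaks in EoP and none in GMP. The Ear1 peak (chr14:43818676-43818869, fold 4.63, pileup 6 fragments) had its summit 879 bases downstream of the start. A single interval (chr14:44102648-44102966, fold 6.72, pileup 11 fragments) was annotated to the other 3 genes. Both were also found in Eos. Ear1 had 15998 and 14474 CPM in EoP, against 25.6 and 3.12 CPM in GMP. Ear2 had 4755 and 3615 CPM in EoP, against 9.54 and 1.04 CPM in GMP. Both EoP libraries were above both GMP libraries for each gene, by a log2 fold change of 10.03 (SE 0.96) for Ear1 and 9.59 (SE 0.84) for Ear2 (edgeR, Benjamini-Hochberg adjusted p = 0.000182 and 0.000111). Ear3 and Ear12 had identical counts in every library, so their separate values are uncertain, as are those of Ear1 and Ear2.

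Il5ra, the receptor subunit behind the EoP gate, had a peak of fold 3.79 at chr6:106747898-106748042, with its summit 1092 bases downstream of the start and the nearest GMP peak 20775 bases away. That peak had the shortest length in the EoP list, 145 bases, and a pileup of 6 fragments. Il5ra RNA was 436 and 399 CPM in EoP, against 2.17 and 1.78 CPM in GMP. The log2 fold change was 7.70 (SE 0.43; edgeR, adjusted p = 2.31e-05), in the direction that the gate selected. The Eos list had a peak over it, of fold 5.55.

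Cybb, which encodes the catalytic subunit of the phagocyte NADPH oxidase, had the strongest such promoter peak (fold 6.83, chrX:9468990-9469214). Its nearest GMP peak was 192949 bases away, and the Eos list had no promoter peak for the gene. Cybb RNA was 1081 and 1220 CPM in EoP, against 215 and 132 CPM in GMP. The difference was 2.73 on the log2 scale (SE 0.33; edgeR, adjusted p = 0.000677). In Eos the RNA was higher again, at 3218 and 3998 CPM, without a listed Eos peak there. Cfp, which encodes the complement factor properdin, likewise had a promoter peak in neither GMP nor Eos. Its EoP peak had a pileup of 5 fragments, and its RNA was 92.8 and 98.2 CPM in EoP, against 21.4 and 23.8 CPM in GMP.

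Adam8, a membrane metalloproteinase of leukocytes, had a peak of fold 5.87 at chr7:139991481-139992218, 12693 bases from a GMP peak. It had 131 and 126 CPM in EoP, against 4.35 and 2.08 CPM in GMP (log2 fold change 5.29, SE 0.41; edgeR, adjusted p = 5.74e-05). Cyp4f18, a cytochrome P450 that acts on leukotriene B4, had a peak with a pileup of 6 fragments. Its RNA was 30.5 and 32.3 CPM in EoP, against 1.21 and 1.78 CPM in GMP. Ccr1, a chemokine receptor, had a peak 365 bases from a GMP peak that was not classed as promoter, and 19.2 and 38.2 CPM in EoP, against 8.21 and 5.06 CPM in GMP. The EoP libraries were above both GMP libraries for each of these genes. Adm2, for a peptide hormone of the adrenomedullin family, had a peak with a pileup of 5 fragments. Its RNA was higher at a low level, with 4.71 and 3.59 CPM in EoP, against 0 and 0.149 CPM in GMP. A promoter peak of this kind did not always go with more RNA. Clec4b2, a C-type lectin gene, had a peak of fold 4.63 and 14.5 and 21.6 CPM in EoP, against 12.3 and 6.99 CPM in GMP (adjusted p = 0.224).

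**Figure D4:**
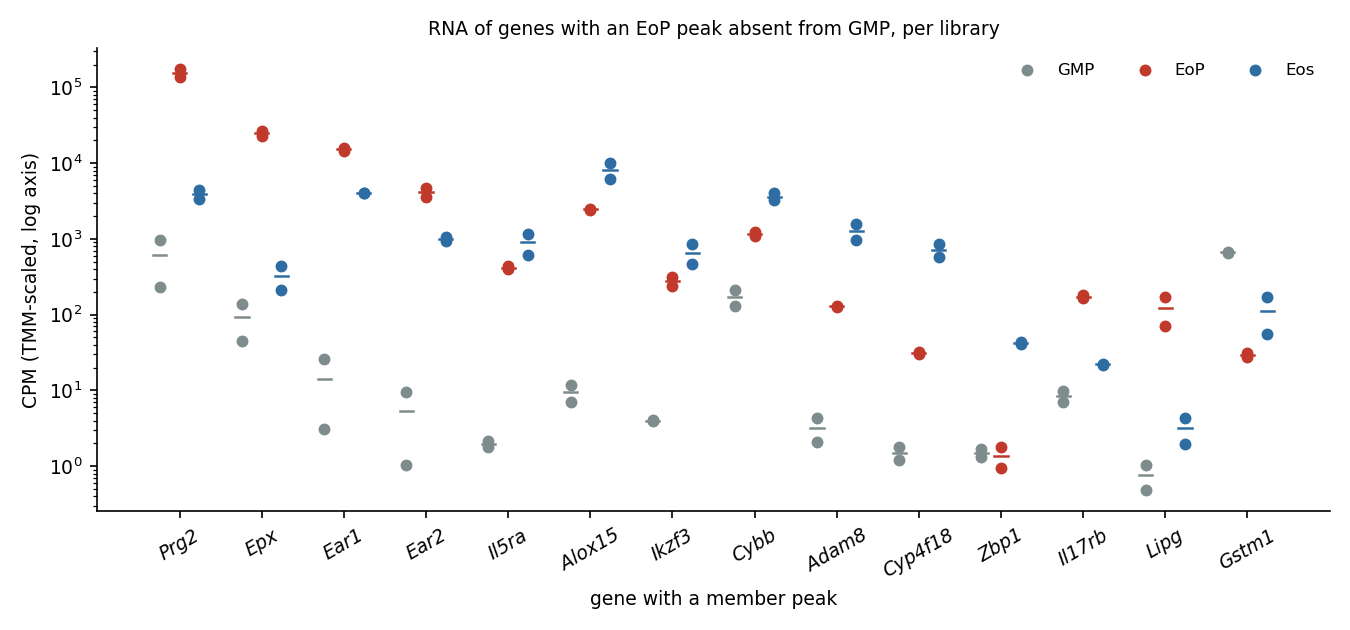
RNA level (CPM scaled by TMM factors, log axis) in each library of GMP (grey), EoP (red) and Eos (blue) for 14 genes with an EoP peak absent from GMP; points are libraries and short lines the mean of 2. EoP points lie above GMP points for 12 of the genes, Zbp1 overlaps, and Gstm1 lies below.

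Other genes had a GMP promoter peak and, beside it, an EoP peak absent from GMP. Alox15, the arachidonate lipoxygenase of eosinophils, had the absent peak (fold 4.39) 276 bases from the GMP peak with its summit 623 bases downstream of the start. It had 2437 and 2477 CPM in EoP, against 11.96 and 7.14 CPM in GMP (log2 fold change 7.998, SE 0.50; edgeR, adjusted p = 2.37e-05). Ikzf3, for the zinc finger factor Aiolos, had 240 and 311 CPM in EoP, against 3.99 and 4.01 CPM in GMP (6.10, SE 0.38; edgeR, adjusted p = 2.37e-05). Its peak lay 36 bases from the GMP peak. No Eos interval overlapped it, but one abutted it. Lipg, for endothelial lipase, had 172 and 69.9 CPM in EoP, against 0.483 and 1.04 CPM in GMP.

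The adhesion receptor genes Emr1 (F4/80) and Emr4 had 270 and 234 CPM and 187 and 245 CPM in EoP. In GMP, Emr1 had 5.44 and 7.58 CPM and Emr4 1.81 and 1.34 CPM. Tpbg, for a leucine-rich membrane glycoprotein, had its summit 217 bases before its nearest start and 255 bases after the start given in the peak list, with 30.4 and 25.2 CPM in EoP, against 1.93 and 0.297 CPM in GMP. Of the integrin genes, Itgam (CD11b) was higher by 2.45 on the log2 scale (SE 0.35), with 550 and 711 CPM in EoP, against 134 and 97.3 CPM in GMP. Itga2b (CD41) was higher by 3.32 (SE 0.30), with 71.7 and 71.0 CPM in EoP, against 5.31 and 9.07 CPM in GMP. P2rx1, an ATP-gated channel, was higher by 2.91 (SE 0.27). Alox5ap, the partner protein of 5-lipoxygenase, was higher by 1.31 (SE 0.30), which failed the threshold with either GMP library or EoP replicate 1 left out (adjusted p up to 0.0917). Runx1, a core transcription factor of blood cells, had 155 and 228 CPM in EoP, against 210 and 218 CPM in GMP, and was not called (adjusted p = 0.751).

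Among the 16 lower genes, Gstm1, for a glutathione S-transferase, had the largest difference of those named. It had 30.8 and 27.7 CPM in EoP, against 673 and 662 CPM in GMP (log2 fold change −4.51, SE 0.47; edgeR, adjusted p = 0.000277). Its absent peak lay 298 bases upstream of the start. The other named genes were lower by 0.90 to 1.84, and each of these calls was lost when some or all of the GMP or EoP libraries were left out. They were Thbd (thrombomodulin), Ivd (a leucine catabolism dehydrogenase), H2afy (the histone variant macroH2A1), Zfp36l2 (a binder of AU-rich RNA), Lrrc58, Fchsd2 and Iqgap2 (a scaffold protein). Iqgap2 had 101 and 116 CPM in EoP, against 187 and 216 CPM in GMP, and Thbd 10.6 and 6.16 CPM, against 30.3 and 29.5 CPM.

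Peaks absent from GMP lay only outside promoters for 962 genes, of which 671 were tested. In EoP against GMP, 99 were higher (14.8%) and 147 lower (21.9%), beside the 9.49% and 17.1% of all genes. Genes that also had an absent promoter peak were left out of these counts but not out of the region and distance classes that follow. Those classes can therefore share genes with the promoter class. The exon class stood nearer to the promoter class, with 18 of 57 tested genes higher (31.6%) and 8 lower. The upstream class had 14 of 95 higher (14.7%) and 18 lower (18.9%). The intron class had 48 of 315 higher (15.2%) and 78 lower (24.8%), and the intergenic class 29 of 238 higher (12.2%) and 47 lower (19.7%). Distance from a GMP peak split the exon and intron classes. Within 1000 bases, 32 of 97 tested genes were higher (33.0%) and 13 lower, and farther away 34 of 276 were higher (12.3%) and 74 lower (26.8%). The nearer genes also had more RNA, with a median of 5.68 RPKM (the authors' values) in EoP and 2.98 in GMP. For the farther genes the medians were 0.316 and 0.467 RPKM, and the part of this level in the calls was not tested. Beside every count of lower genes stands the larger number of genes with any count in GMP libraries, whose part in those counts was not tested.

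Granule genes were among those with an exon or intron peak near a GMP peak. Prg2, for major basic protein, had an exon peak (fold 3.63) 205 bases from a GMP peak and 2561 bases downstream of the start. It had 176088 and 136826 CPM in EoP, against 981 and 235 CPM in GMP. Epx, for eosinophil peroxidase, had an intron peak (fold 2.76) 281 bases from a GMP peak and 1858 bases downstream of the start, with 26922 and 23178 CPM in EoP, against 140 and 45.1 CPM in GMP. The differences were 8.01 (SE 0.94) and 8.08 (SE 0.75) on the log2 scale (edgeR, adjusted p = 0.000524 and 0.000145). Neither peak was found in Eos. Cd63, for a granule membrane tetraspanin, had an exon peak and was higher by 2.95 (SE 0.29). Cebpe, for a granulocyte transcription factor, had an exon peak 52 bases from a GMP peak and 127 and 91.9 CPM in EoP, against 11.5 and 20.8 CPM in GMP.

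Other non-promoter peaks lay at genes of several lineages. Vcam1, an adhesion molecule gene, and Hdc, for the histidine decarboxylase that makes histamine, had intron peaks 333 and 13 bases from a GMP peak. Vcam1 was higher by 2.74 (SE 0.50), a call lost without GMP replicate 2 (adjusted p = 0.0527), and Hdc by 1.65 (SE 0.28), a call lost without GMP replicate 1 (adjusted p = 0.0623). The mast cell and basophil list, which holds Hdc, summed to 1603 and 4392 CPM in EoP, against 1270 and 1294 CPM in GMP, with 3 of 11 tested genes higher and 2 lower; its part in the Hdc difference was not tested. Ikzf2, for the factor Helios, had an intergenic peak 192362 bases from its start and was higher by 2.17 (SE 0.27). Ly6c2, a monocyte surface antigen gene, had an intergenic peak 26146 bases away and 13.2 and 13.95 CPM in EoP, against 410 and 285 CPM in GMP.

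The strongest peak of all was in an intron of Ica1, whose product acts in secretory vesicle traffic (fold 11.9, pileup 30 fragments, chr6:8730053-8730308). It was 47109 bases from a GMP peak and was also found in Eos. Its gene was nevertheless lower, with 0.706 and 2.31 CPM in EoP, against 14.1 and 20.1 CPM in GMP (log2 fold change −3.44, SE 0.60; edgeR, adjusted p = 0.0044). Of the other 7 strongest non-promoter peaks, annotated to Adgb, Jarid2, Slc25a12, Fscn1, Abhd4, Hs2st1 and Thoc3, 6 genes were tested and only Slc25a12, a mitochondrial carrier gene, was called. It was lower by 0.92 on the log2 scale, a call lost when any EoP or GMP library was left out (adjusted p up to 0.132).

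Of all 23471 genes in the RNA files, 1194 had a peak absent from GMP (5.09%), at a promoter or elsewhere. Such peaks were at 6 of 9 granule genes, 6 of 27 surface receptor and adhesion genes, 5 of 26 lineage transcription factor genes and 3 of 15 lipid mediator genes. None of the 11 GMP primary granule genes, 20 cytokine and chemokine genes and 11 stromal genes had one. Of 21 stem and progenitor genes, 6 had one outside promoters (28.6%), among them Flt3, Meis1, Myb and Mecom. The strongest such peak of each of these 4 was at least 12749 bases from a GMP peak and was not found in Eos. Mecom was lower, at 0.824 and 0.770 CPM in EoP, against 5.07 and 4.01 CPM in GMP, a call lost under the replicate block, DESeq2 and each left-out GMP or EoP library. Flt3, Meis1 and Myb were not called. Of the remaining lists, 3 of 17 monocyte, macrophage and dendritic cell genes and 2 of 13 erythroid genes had one, and the neutrophil, megakaryocyte, B cell, T and natural killer cell, and mast cell and basophil lists 1 each. The other markers with a peak were Cybb of the neutrophil list, Epor and Alas2 (erythroid), Itga2b (megakaryocyte), Ebf1 (B cell), Cd2 (T and natural killer cell), and Ly6c2, Flt3 and Vcam1 (monocyte, macrophage and dendritic cell). Epor, Alas2, Ebf1 and Cd2 were under 4 CPM in both EoP libraries, and none of these 4 was called in EoP against GMP. In Eos against EoP, Alas2 and Cd2 were higher (edgeR, adjusted p = 0.0111 and 0.0234), and in Eos against GMP Ebf1 was (adjusted p = 0.01999). The Alas2 call was lost without EoP replicate 1 or Eos replicate 2, and the Ebf1 call with library size alone or without GMP replicate 2. The Cd2 call was lost under the replicate block and without either GMP library, EoP replicate 1 or Eos replicate 1.

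In Eos against EoP, 63 of the 207 promoter genes were higher (30.4%) and 42 lower (20.3%), beside 19.1% and 17.7% of all genes tested. Of genes whose EoP promoter peaks all overlap GMP, 18.4% were higher and 22.5% lower. This comparison shares the EoP libraries with the one above, so each is given by its own values. Where the peak was found in Eos, 44 of 118 were higher (37.3%) and 22 lower, and where it was not, 19 of 89 were higher (21.3%) and 20 lower. In Eos against GMP, 93 of 207 were higher (44.9%) and 38 lower (18.4%), beside 22.7% and 31.8% of all genes. Of the 23 tested genes with no GMP promoter peak, 16 were higher in Eos than in GMP and 0 lower.

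Zbp1, a sensor of nucleic acids, had 40.8 and 44.1 CPM in Eos, against 1.77 and 0.941 CPM in EoP (log2 fold change 4.99, SE 0.40; edgeR, adjusted p = 3.71e-05). Its promoter peak was in both lists and not in GMP, and its RNA in EoP did not differ from GMP past the threshold (adjusted p = 0.781). Myadm, for a myeloid membrane protein, had 2649 and 4997 CPM in Eos, against 170 and 144 CPM in EoP. Cyp4f18 had 580 and 862 CPM in Eos, against 30.5 and 32.3 CPM in EoP. Inpp5j, an inositol phosphatase gene, and Map3k6, a kinase gene, were higher by 4.19 (SE 0.27) and 3.41 (SE 0.43). Peaks of 4 of the 5 were found in Eos, and that of Map3k6 was not. The 16 tested neutrophil genes were all higher in Eos than in EoP and summed to 45991 and 52982 CPM in Eos, against 1773 and 1554 CPM in EoP, and their part in these differences was not tested.

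In the other direction, Lipg had 4.31 and 1.98 CPM in Eos, against 172 and 69.9 CPM in EoP (log2 fold change −5.24, SE 0.52; edgeR, adjusted p = 0.000113). Il17rb, a subunit of the receptor for interleukin 25, had 22.2 and 21.9 CPM in Eos, against 167 and 179 CPM in EoP (−2.97, SE 0.24). Hyal3, of the hyaluronidase family, had 19.0 and 25.9 CPM in Eos, against 144 and 144 CPM in EoP (−2.68, SE 0.24). Slc35d1, a nucleotide sugar transporter gene, was lower by 2.17 (SE 0.24). The EoP peaks of these 4 genes had summits 625 to 853 bases downstream of the nearest start, although that of Il17rb was 775 bases before the start given in the peak list, and none was found in Eos. Ppan, a ribosome biogenesis gene, was lower by 2.34 (SE 0.49) with its peak in Eos. Ear2 was lower in Eos by 2.08 (SE 0.59), which failed the threshold with EoP replicate 1 left out (adjusted p = 0.0685) and with DESeq2. Ear1 was lower by 1.91 (SE 0.67, adjusted p = 0.0483), a call lost under RLE size factors, library size alone, DESeq2 and each left-out EoP or Eos library.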

How the data were processed

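Processing used 6 RNA libraries and 3 H3K4me3 peak lists, grouped by sample title. The authors' RNA files give, per RefSeq transcript, an estimated count (whole numbers) and an RPKM value; the sources used here do not name the counting tool. Per the submitters' processing notes, mm10 is the listed build, and Bowtie 1.0.0 and STAR 2.4.0c are listed with no role. Per the file headers, the deposited peak lists give 1 line per summit with its pileup signal, −log10 p and q, and fold enrichment (a ratio over background), and peaks were listed per library; the sources used here name neither caller nor control. Lines were merged to unique intervals, 1-based, with the highest value over summits. The list values were not compared between lists. An interval was absent where no GMP interval shared at least 1 base. The promoter class is the authors' own. The strongest absent promoter peak of each gene had its summit from 1059 bases before to 1151 bases after the nearest start. A weaker absent promoter peak of Alox15 had its summit 1260 bases after the start given in the peak list.

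Estimated counts were summed per gene symbol to 23471 genes. edgeR 4.0.16 in R 4.3.3 (default filter, 14324 genes; TMM; quasi-likelihood; 1 fit of 6 libraries by cell type, 3 residual degrees of freedom) gave log2 fold changes with standard errors. RPKM values of the authors gave only the median levels printed for genes with exon and intron peaks. Calls needed a Benjamini-Hochberg adjusted p below 0.05. Replicate libraries correlated at 0.975 to 0.980 (Pearson, log2 (CPM + 1), across genes). The test recovered known changes on simulated data. These were set only in EoP and in genes with many counts, up and down alike, with the same dispersion for every gene. Genes with low counts and uneven changes were not simulated. Alternatives were other scalings, no filter, DESeq2 1.42.0, a replicate block, a 2-fold minimum, each library left out, and other rules for absence, presence in Eos and gene assignment. Exact binomial intervals (95%) cover counting error only. The intervals, gene lists and tests were chosen with earlier results of these data known. Genes were named by rule: up to 12 higher and 8 lower in EoP, 5 higher and 5 lower in Eos, at 20 CPM or more, 8 by peak fold in each class, all eosinophil list genes and up to 4 of each other list with a peak. No genome was used, so sequence comes from RefSeq promoter windows, matched by symbol for 167 of 232 promoter genes.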

Additional observations from a re-analysis of the deposited data

How the results depend on the processing

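The rule named 63 genes, of which Fscn1 was not tested and gave no value. Of 2604 values of the others under the alternatives, 2457 were counted as unchanged, 107 lost the call and 40 gained one. Of the values called in the main fit, 0 reversed. A change of sign in a value not called was counted as unchanged, and such changes occurred. Thbd in Eos against EoP had a log2 fold change of 0.04, and −0.44 to 0.47 with 1 library left out. Library size alone shifted the median log2 fold change over all genes by −0.458 in EoP against GMP and −0.572 in Eos against GMP, and upper quartile factors by −0.181 and −0.227. With library size alone, 603 of all genes passed as higher in EoP against GMP (14.4% of calls, against 35.7% with TMM) and 2025 in Eos against GMP. The promoter genes lower were then 26 in EoP against GMP and 60 in Eos against GMP. Deviations of same-numbered libraries correlated at −0.139 (EoP and GMP), −0.107 (Eos and EoP) and 0.04 (Eos and GMP). No shared effect of the replicate number was seen, but these values cannot exclude that same-numbered libraries were paired. With the replicate block, 1508 genes passed as lower in EoP against GMP, 54 promoter genes as higher and 13 as lower. With the numbers crossed in EoP, an alternative chosen after seeing the data, 57 were higher and 14 lower.

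With 1 library left out, the lone library of its group is assumed to vary like the others. In EoP against GMP the calls over all genes were then 423 to 2346 higher and 312 to 3552 lower, and over promoter genes 41 to 75 and 2 to 24. In Eos against EoP they were 1657 to 3114 and 1361 to 3283, and over promoter genes 40 to 72 and 24 to 54. In Eos against GMP they were 2328 to 3621 and 1655 to 4515, and over promoter genes 72 to 98 and 19 to 40.

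Other rules for absence change the set by construction. With under 50% of the EoP peak covered by GMP, 33.2% of intervals were in Eos, and promoter genes higher and lower were 103 and 34 (EoP against GMP), 119 and 90 (Eos against EoP) and 169 and 93 (Eos against GMP). With no GMP peak within 1000 bases the share was 11.2% and the genes 12 and 1, 10 and 4, and 18 and 0. With the upper 50% of the EoP list by −log10 q, 3 intervals were left, 100% in Eos, with 1 and 0 in each comparison. With the GMP list at the length of the EoP list, 2432 intervals were absent, 43.1% in Eos, and the genes were 149 and 62, 199 and 188, and 280 and 200. Only genes with no GMP promoter peak gave 11 and 1, 9 and 4, and 16 and 0. The share in Eos was 18.4%, against 87.7% of intervals that overlap GMP, with the Eos list at the length of the EoP list. It was 17.5%, against 83.7%, with at least 50% of the EoP peak covered. Windows of 300 and 600 bases at the peaks were not run, since no genome was used. The depth of the H3K4me3 libraries is unknown, and intervals with few fragments limit every share of the isolated peaks.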

Other observations

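Several intervals absent from GMP fell in the same loci. Of 1194 genes with such a peak, 107 had several. Chosen after their values were seen, Gm21119 had 5, and Erdr1, Nkx6-1, Sfi1 and Speer8-ps1 had 4 each. Chromosome Y had the highest share, with 5 of 13 EoP intervals absent from GMP (38.5%), 4 of them at Erdr1, against 5.02 to 8.20% on the autosomes and 5.57% on X.

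Of the 232 promoter genes, 205 had an Eos promoter peak of some kind, and for 81 of these the interval absent from GMP was itself not overlapped in Eos. Another EoP promoter peak was listed for 176 of the 232.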
